A study of Rattus norvegicus with 4 samples.

Results

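The let-7 family comprises the rat microRNAs (miRNAs) let-7a, let-7b, let-7c, let-7d, let-7e, let-7f, let-7g, let-7i and miR-98. Its 9 members were taken by the name of the precursor hairpin (rno-let-7a, rno-let-7b, rno-let-7c, rno-let-7d, rno-let-7e, rno-let-7f, rno-let-7g, rno-let-7i and rno-mir-98 in the files), with genomic copies of a member added together and the 5p and 3p arms kept apart as separate forms. Counts were found for 14 family forms, of 348 named miRNA forms with a count in at least 1 library. The study sequenced small RNA from exosomes, the small vesicles that cells release, and compared those of rat adipose tissue (Exo-AT) with those of adipose-derived stem cells (Exo-ADSCs). Exo-AT came from fat of Sprague-Dawley rats aged 4 weeks, minced and held as explants for 3 days in a spinner flask with 75 mL of α-MEM at 100 rpm. Exo-ADSCs came from passage 3 cells held for 3 days in serum-free α-MEM. Both media contained penicillin and streptomycin, neither group received another agent, and how many animals or cultures were pooled is not given in the sources used here. Explants hold every cell type of fat, blood cells included, whereas the stem cells were expanded in culture. Each group has 2 libraries, but counts per read sequence were used for 3 of the 4: Exo-ADSCs replicate 2 and Exo-AT replicates 1 and 2. Exo-ADSCs replicate 1 enters only through a deposited table with 3 family members.

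A miRNA is cut from a hairpin precursor by the enzymes Drosha and Dicer and loaded into an Argonaute protein, which it guides to messenger RNAs. The seed, the run of bases after the first base of the miRNA, decides most of the pairing, so a miRNA whose 5′ end is shifted presents another seed. The let-7 family is one of the oldest and most abundant miRNA families in animals, rises as cells differentiate and is restrained in pluripotent stem cells by LIN28, which binds let-7 precursors.

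The 9 mature 5p sequences are shown because they share 1 seed and differ by few bases elsewhere, which is what separates the members in the read counts. They are taken from RefSeq (assembly GRCr8), where all 14 forms with counts were matched by name, and capitals mark the seed, bases 2 to 8.
let-7a-5p: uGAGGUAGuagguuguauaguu
let-7b-5p: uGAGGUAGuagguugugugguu
let-7c-5p: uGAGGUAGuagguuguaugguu
let-7d-5p: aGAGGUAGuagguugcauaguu
let-7e-5p: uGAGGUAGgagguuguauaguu
let-7f-5p: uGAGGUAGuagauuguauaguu
let-7g-5p: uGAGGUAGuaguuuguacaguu
let-7i-5p: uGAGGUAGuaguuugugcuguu
miR-98-5p: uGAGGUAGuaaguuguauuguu

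Counted from 1 at the 5′ end and with the base of let-7a-5p first, let-7c-5p differs from let-7a-5p by A19G, let-7e-5p by U9G and let-7f-5p by G12A. let-7b-5p differs by A17G and A19G, let-7d-5p by U1A and U16C, let-7g-5p by G12U and U18C, and miR-98-5p by G11A and A19U. let-7i-5p is the most distant, with G12U, A17G, U18C and A19U. The members come from 12 loci in GRCr8. On chromosome 17, let-7a-1 (5p at chr17:16320145-16320166), let-7f-1 (chr17:16320508-16320529) and let-7d (chr17:16322273-16322294) lie side by side on the plus strand. let-7c-2 (chr7:118683636-118683657) and let-7b (chr7:118684044-118684065) are neighbours, as are let-7f-2 (chrX:24460052-24460073) and miR-98 (chrX:24460663-24460684), all on the plus strand. The other 5 loci are let-7a-2, let-7c-1, let-7e, let-7g and let-7i, of which let-7i (chr7:60527935-60527956) is on the minus strand. Members made from copies at several loci (let-7a, let-7c and let-7f) cannot be traced to a locus by their mature 5p sequence.

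A second set of sequences shows what was read. These are tags, the distinct read sequences of the files, written as DNA, and capitals mark bases that stand before the mature start. The first is the mature let-7a-5p itself and the others carry 3 added bases.
let-7a-5p, mature start: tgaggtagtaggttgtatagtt
let-7a-5p with GAC: GACtgaggtagtaggttgtatagtt
let-7a-5p with ACG: ACGtgaggtagtaggttgtatagtt
let-7f-5p with ACG: ACGtgaggtagtagattgtatagtt
let-7b-5p with CAT: CATtgaggtagtaggttgtgtggtt

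The mature let-7a-5p tag had 2568 counts in the stem cell library and 18 and 290 in Exo-AT replicates 1 and 2. The same tag with GAC before it had 7777 counts in Exo-ADSCs replicate 2 and 0 in both Exo-AT libraries. It was thus the most frequent let-7 tag of the stem cell exosomes, with 62.0% of all family counts there. The ACG form of let-7a-5p had 64 counts, the ACG form of let-7f-5p had 37 and the CAT form of let-7b-5p had 36 in Exo-ADSCs replicate 2, and each had 0 in the Exo-AT libraries.

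The libraries differ greatly in depth, which limits what can be said of rare members. Named miRNAs held 97204 counts in the stem cell library and 9134 and 136024 in Exo-AT replicates 1 and 2. By counting error, a count of 0 allows up to 3 counts, or 30.9, 328 and 22.1 CPM (counts per 1000000 named miRNA counts of a library). No tag had fewer than 2 reads in any library. A count of 0 can therefore also hide tags read once, which these floors do not cover. Inside the files, Exo-AT replicates 1 and 2 bear an identical sample name. Their counts differ by more than counting noise over all named miRNAs (chi-square test of counts, p = 9.97e-261, 79 miRNAs) and over let-7 5p forms (p = 0.0154, 7 forms). The test takes reads as independent molecules, which amplified reads are not, and does not show that the libraries came from separate samples. They were kept as 2 libraries by their labels. The labels do not state separate animals or cultures behind the replicates, and the p-values therefore cover the spread between these libraries alone, which may be technical. Intervals are Wilson 95% intervals and, as the reads carry no molecular identifiers, they and the floors cover counting error only. All 4 mesenchymal marker miRNAs (miR-199a, miR-214, miR-143 and miR-145) were present in the stem cell library and in Exo-AT replicate 2, and 3 of 4 in Exo-AT replicate 1. Their summed level was 133895 to 199146 CPM. In Exo-ADSCs replicate 2 that sum was mostly miR-143-3p, with 14709 matched counts of 15569. miR-214-3p was at 1029 CPM there, against 109 CPM (below the floor) and 103 CPM in Exo-AT replicates 1 and 2. The erythroid markers miR-451, miR-486 and miR-144 were found in all libraries except that 1 of 3 had no count in Exo-AT replicate 1, with sums of 33527 CPM in Exo-ADSCs replicate 2 and 51018 and 166978 CPM in Exo-AT. The endothelial miR-126a summed to 329 CPM in Exo-ADSCs replicate 2 and to 3832 and 5102 CPM in Exo-AT. The part of these cell types in the let-7 differences was not tested, and in bulk exosome RNA fewer vesicles of a cell type and less RNA per vesicle cannot be told apart.

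As a family, let-7 took a larger share of the miRNA counts in the stem cell library than in the tissue libraries. The family had 12538 counts in Exo-ADSCs replicate 2, or 12.9% of named counts (12.7 to 13.1). In Exo-AT replicate 1 it had 231 counts (2.53%, 2.23 to 2.87), and replicate 2 had 3354 (2.47%, 2.38 to 2.55). The 2 tissue libraries thus had the same share within counting error and the stem cell library lay far above both. The size of the gap rests on what is counted. With tags of 20 to 25 nt only, the usual length of a miRNA, the shares were 28.6%, 2.63% and 2.53% in the same order. With family 5p tags whose seed stood elsewhere than at bases 2 to 8 dropped from family and total, and 3p tags kept, they were 4.62%, 2.33% and 2.02%. Relative to all counts assigned to any hairpin, including those that the authors predicted, they were 1.75%, 1.52% and 1.85%, and the stem cell library lay between the tissue libraries.

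**Figure D1:**
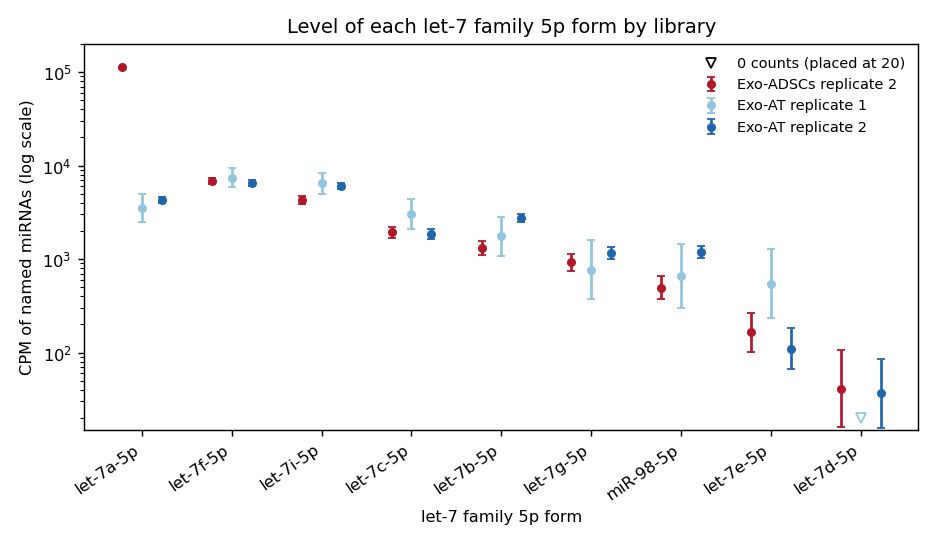
Level of each let-7 family 5p form in CPM of named miRNAs (log scale) in the 3 libraries with tag counts; points are single libraries, bars are Wilson 95% intervals, and the hollow triangle is a count of 0. let-7a-5p stands at 112578 CPM in Exo-ADSCs replicate 2 against 3503 and 4286 CPM in Exo-AT, while let-7f-5p lies between 6492 and 7445 CPM in all 3.

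The order of the members differed between the vesicle sources. let-7a-5p, the founding sequence of the family, had 10943 counts in the stem cell library (112578 CPM), against 32 (3503 CPM) and 583 (4286 CPM) in the tissue replicates 1 and 2. In the stem cell library it led the family and ranked after let-7f-5p and let-7i-5p in both tissue libraries. let-7f-5p, which differs from it by 1 base, had 667, 68 and 883 counts, or 6862, 7445 and 6492 CPM, and was the first member in both tissue libraries. let-7i-5p, encoded away from the clusters, had 416, 59 and 822 counts, or 4280, 6459 and 6043 CPM, and was second there. In each tissue library the intervals of let-7f-5p and let-7i-5p overlapped, so their order there is not resolved by counting. let-7c-5p had 188, 28 and 252 counts (1934, 3065 and 1853 CPM) and let-7b-5p 129, 16 and 375 counts (1327, 1752 and 2757 CPM). These 2 neighbours swapped places between the tissue libraries, and in Exo-AT replicate 1 their intervals overlapped. let-7g-5p had 90, 7 and 158 counts (926, 766 and 1162 CPM) and miR-98-5p 48, 6 and 161 counts (494, 657 and 1184 CPM). let-7e-5p was rare, with 16, 5 and 15 counts, and let-7d-5p rarest, with 4, 0 and 5 counts. For let-7d-5p all 3 values are near the counting floor, so no difference was detectable at this depth.

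Expressed as shares of the family's 5p counts, the tissue libraries lay closer to each other than to the stem cell library. let-7a-5p made up 87.5% of the stem cell counts (86.9 to 88.1), against 14.5% (10.4 to 19.7) and 17.9% (16.6 to 19.3) in Exo-AT replicates 1 and 2. let-7f-5p made up 5.34%, 30.8% and 27.1%, and let-7i-5p 3.33%, 26.7% and 25.3%. These shares need no scaling between libraries, although the share of 1 member lowers those of the others. With the seed at bases 2 to 8 only, let-7a-5p made up 66.4%, 14.9% and 16.5%, let-7f-5p 14.2%, 32.2% and 26.7% and let-7i-5p 9.57%, 26.2% and 26.03%. The stem cell shares of let-7f-5p and let-7i-5p were thus higher than with all tags, and lay below the tissue shares. let-7a-5p was still the first member of the stem cell library, and with mismatch-free tags of 20 to 25 nt that align to 1 member it made up 67.6%, 16.6% and 18.5%.

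**Figure D2:**
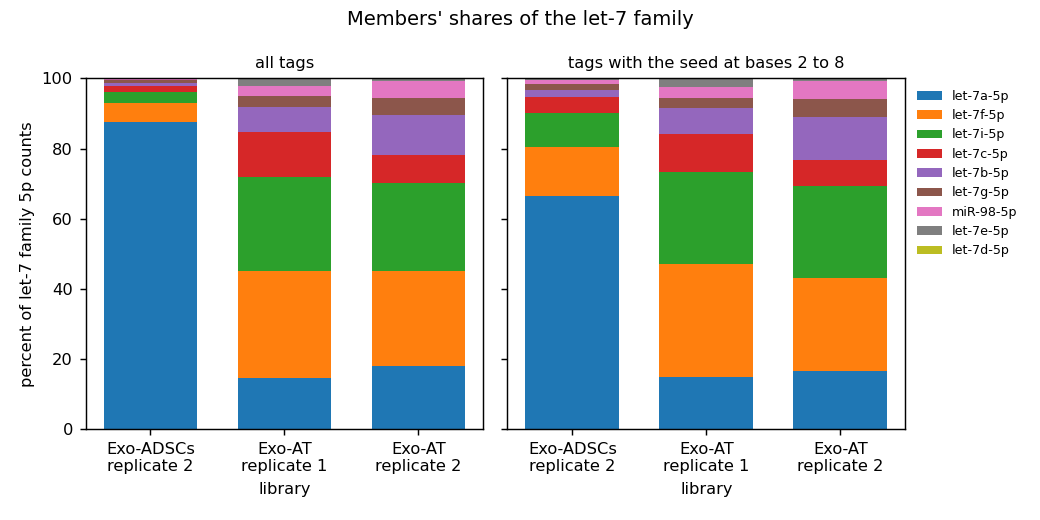
Share of each member in the family's 5p counts (percent, stacked to 100) per library, for all tags (left) and for tags with the seed at bases 2 to 8 (right). let-7a-5p fills 87.5% of the stem cell bar on the left and 66.4% on the right, against 14.5 to 17.9% of the tissue bars.

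The 5′ ends were where the stem cell library departed most from the annotated family. In Exo-ADSCs replicate 2 the seed stood at bases 2 to 8 in 32.5% of 5p counts (31.7 to 33.3), and 65.5% (8185 of 12501 counts, 64.6 to 66.3) had 3 added bases, which moves the seed letters to bases 5 to 11. In Exo-AT replicates 1 and 2 the seed stood at bases 2 to 8 in 91.4% (87.0 to 94.4) and 81.1% (79.7 to 82.4), and none of 221 and of 3254 counts had 3 added bases. The tissue libraries had other end forms. A single added base was found in 3.62% and 6.61% of their 5p counts against 0.056% in Exo-ADSCs replicate 2. With tags that align to 1 miRNA name the shares were 0.971% and 4.68% against 0.0321%, and with mismatch-free tags 1.03% and 3.44% against 0.101%. On all other named miRNAs 1 added base was likewise more frequent in tissue, at 8.01% and 8.69% against 2.83%. In all family tags, a start 1 base late was found in 0.905% and 4.09% against 0.112%. The tags with 3 added bases enlarge the stem cell total and so lower its other shares. With mismatch-free tags, which hold none of them, late starts made up 1.03% and 4.93% against 0.352%.

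The added bases were unevenly spread over the members and came as few triplets. let-7a-5p carried 3 added bases in 73.4% of its 10943 counts in Exo-ADSCs replicate 2 (72.6 to 74.2). let-7b-5p carried them in 30.2% (22.97 to 38.6, 129 counts) and let-7g-5p in 18.9% (12.1 to 28.2, 90 counts). The shares were 10.2% for let-7f-5p (8.12 to 12.7), 6.25% for miR-98-5p (2.15 to 16.8) and 5.53% for let-7i-5p (3.71 to 8.16). let-7c-5p had none in 188 counts (up to 2.00%) and let-7e-5p none in 16, while let-7d-5p had them in 3 of 4. GAC made up 7871 counts, of which 7866 were on let-7a-5p and 5 on let-7f-5p. ACG followed with 172, CAT with 106 and GTA with 25.

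None of the 8185 counts with 3 added bases matched the bases that precede the mature start in the member's own hairpin. In the hairpins to which the tags were aligned, those bases are GGA in let-7a-1 and GGC in let-7a-2, so GAC has 1 mismatch to let-7a-2. let-7f-1, with GAG, is also 1 mismatch away, and let-7f-5p carried GAC in 5 counts. let-7e, let-7g and let-7i have GGC too, and GAC was found on none of them. Shorter additions matched the hairpin more often in each library, although fewer bases also match more readily by chance. With 1 added base, 57.7% of 215 counts matched in Exo-AT replicate 2 and 5 of 8 (62.5%) in Exo-AT replicate 1. In Exo-ADSCs replicate 2, 71.4% of 7 counts with 1 added base and 63.5% of 115 with 2 matched. Because of the mismatches of the 3 added bases, tags with a mismatch or indel held 68.2% of the family's counts in Exo-ADSCs replicate 2. Such tags held 11.7% and 17.2% in Exo-AT replicates 1 and 2. With mismatch-free tags only, the share with 3 added bases was 0%.

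The triplets were also searched on all other named miRNAs, by the first 12 bases of their mature sequence. GAC was on none of 74088 such counts in Exo-ADSCs replicate 2. ACG was on 21 of 135 other forms (268 counts), CAT on 19 (290 counts) and GTA on 19 (198 counts) of that library, and 3 added bases made up 1.02% of their counts (0.951 to 1.10). Of 36 miRNAs with at least 100 matched counts there, let-7 members included, 25 had tags with 3 added bases and 7 had them in over 10% of their counts. Among these 7, let-7a-5p was highest at 74.4% by this search, followed by miR-423-5p at 44.0% and let-7b-5p at 30.7%, and let-7f-5p was at 10.3%. In the Exo-AT libraries GAC, ACG and CAT were absent from all matched counts. GTA occurred there on miR-10b-5p alone, with 83 and 1737 counts. On all other named miRNAs, 3 added bases made up 1.60% and 2.53% of matched counts in Exo-AT replicates 1 and 2, above the stem cell share. miR-10b-5p held 110 of these 110 counts in replicate 1 and 2267 of 2269 in replicate 2. ACG, CAT and GTA were thus shared with other miRNAs of the stem cell library, whereas GAC was found on let-7a-5p and let-7f-5p only. The origin of the added bases was not tested.

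**Figure D3:**
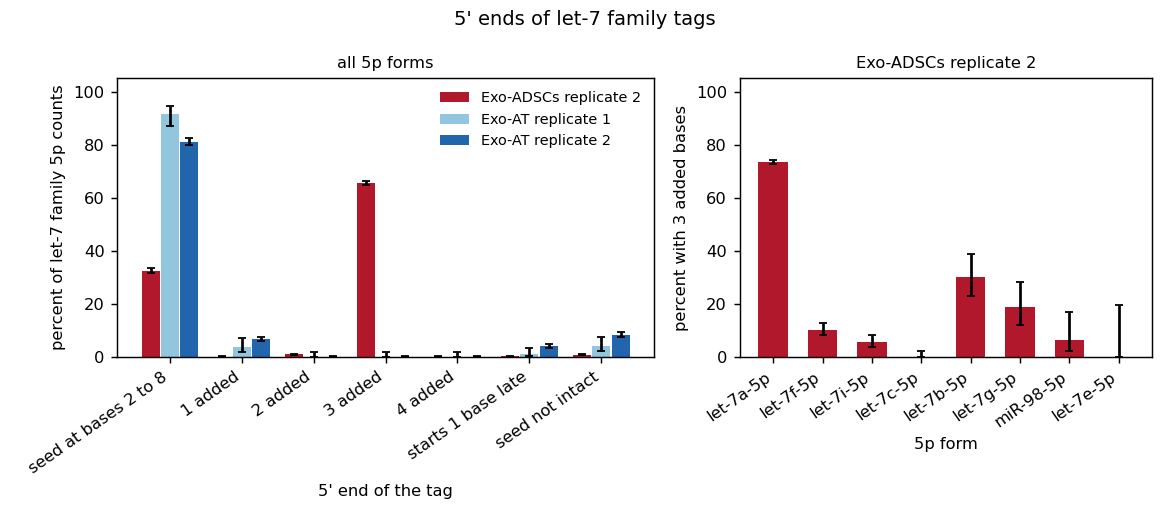
Left, share of the family's 5p counts (percent) by the 5′ end of the tag in the 3 libraries; right, share of each 5p form's counts with 3 added bases in Exo-ADSCs replicate 2, without let-7d-5p (4 counts). Error bars are Wilson 95% intervals; 3 added bases reach 65.5% in the stem cell library and 0% in tissue, and 73.4% for let-7a-5p against 0% for let-7c-5p.

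The seed itself was changed in some tissue tags. Tags that began with T and had T in place of the first seed base made up 4.07% (9 counts, 2.16 to 7.56) and 6.91% (225 counts, 6.09 to 7.84) of 5p counts in Exo-AT replicates 1 and 2, against 0.0960% in Exo-ADSCs replicate 2 (12 counts, 0.0549 to 0.168). In Exo-ADSCs replicate 2, tags with 3 added bases held 65.5% of 5p counts. Such tags cannot be of this kind and so lower its share. The changed tags were spread over 7 of the 9 members in Exo-AT replicate 2, over 3 in Exo-AT replicate 1 and over 2 in Exo-ADSCs replicate 2. The most frequent examples are shown to locate the change, with the changed base in capitals.
let-7i-5p, changed base: tTaggtagtagtttgtgctgtt
let-7f-5p, changed base: tTaggtagtagattgtatagtt

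These 2 tags had 30 and 28 counts in Exo-AT replicate 2 and 0 in both other libraries. Whether the change arose in the RNA or in the library was not tested.

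Family tags were longer in the stem cell library, whereas its other miRNAs were shorter. The mean length of let-7 5p counts was 23.9 nt in the stem cell library and 20.9 and 21.02 nt in tissue replicates 1 and 2, with most common lengths of 25, 22 and 22 nt. For all other named miRNAs the means were 19.2, 20.8 and 21.2 nt and the most common lengths 18, 22 and 22 nt. The 25 nt peak is that of the 3 added bases. Among tags with the seed at bases 2 to 8, the stem cell mean was 21.8 nt and 97.1% of counts were 21 to 23 nt long, against 77.7% and 80.2% in the tissue libraries. Tags under 20 nt made up 1.25% of these counts (0.956 to 1.65) in the stem cell library, against 12.4% (8.53 to 17.6) and 10.8% (9.64 to 12.002) in Exo-AT replicates 1 and 2. A short let-7f-5p tag is shown as the clearest case, since it ends soon after the base at which let-7f-5p differs from let-7a-5p.
let-7f-5p, short tag: tgaggtagtagattg

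It is 15 nt long and had 12 and 100 counts in the tissue libraries and 0 in Exo-ADSCs replicate 2. It reaches base 12, which among the 9 printed sequences is A in let-7f-5p alone. Tags shared between members held 0.447% of family counts in the stem cell library and 6.49% and 5.69% in the tissue replicates 1 and 2. The highest such share among 5p forms of Exo-AT replicate 2 was 23.02%, for let-7c-5p.

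**Figure D4:**
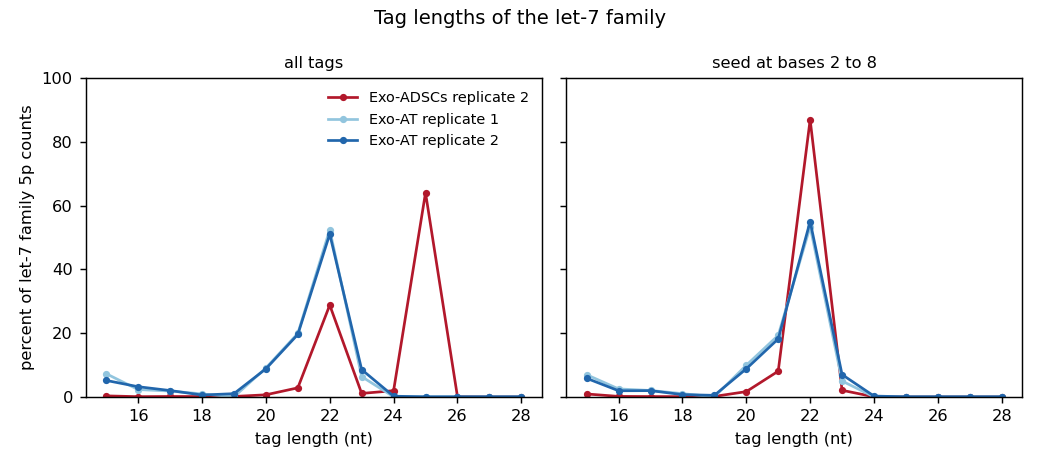
Length of let-7 family 5p tags (nt) as percent of 5p counts in each library, for all tags (left) and tags with the seed at bases 2 to 8 (right). The stem cell library peaks at 25 nt on the left and at 22 nt on the right, where both tissue libraries also carry a tail under 20 nt.

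Almost all family counts came from the 5p arm, the arm that let-7 hairpins usually load, with let-7d as the exception. In Exo-AT replicate 1 all 10 let-7d counts, and in Exo-AT replicate 2 79 of 84 (94.0%, 86.8 to 97.4), came from the 3p arm, whereas all 4 let-7d counts of Exo-ADSCs replicate 2 came from the 5p arm. The let-7d-3p tags were short: 17 nt was the most common length, with 100% and 75.9% of counts. The mature let-7d-3p of RefSeq and the 2 leading tags of Exo-AT replicate 2 are shown because these 2 tags share its start and end early (seed in capitals in the first).
let-7d-3p: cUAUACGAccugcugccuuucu
let-7d-3p, short tag: ctatacgacctgctgcc
let-7d-3p, long tag: ctatacgacctgctgcctttc

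The short tag had 0 counts in the stem cell library and 5 and 40 in tissue replicates 1 and 2, and the long tag had 0, 0 and 19. With tags of 20 to 25 nt only, the 3p arm held 79.2% of let-7d counts in Exo-AT replicate 2 (59.5 to 90.8).

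The other 3p forms were rare. let-7a-3p had 32, 0 and 6 counts. Its tags in Exo-ADSCs replicate 2 were 16 and 17 nt long, all carried a mismatch or indel, and began inside the mature 3p sequence, as shown by the leading one with 27 counts.
let-7a-3p arm, leading tag: tactgtctttcctaggg

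In Exo-AT replicate 2 the let-7a-3p tags were 22 nt long and all were shared with let-7c, so these counts cannot be given to 1 member. let-7b-3p had 9 counts and let-7c-3p had 6, both in Exo-AT replicate 2 only. The 3p arm of miR-98 had 5 counts in Exo-ADSCs replicate 2 only, all from 1 tag of 16 nt. That tag is not part of the mature miR-98-3p sequence and was given its arm by its position in the hairpin alone. No 3p tag of let-7e, let-7f, let-7g or let-7i was counted.

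The comparison of Exo-AT with Exo-ADSCs addressed how the miRNA content of fat vesicles differs from that of vesicles of its stem cells. It was fitted over all named miRNAs by edgeR's quasi-likelihood test with trimmed-mean (TMM) scaling and Benjamini-Hochberg adjustment. A low-count filter left 183 miRNAs, among them 10 of the 14 family forms. Of these 10, let-7d-3p was called higher in Exo-AT, both arms of let-7a and the 5p arm of let-7f were called lower, and 6 did not pass. Over all 183, 19.1% were called higher and 19.1% lower, 38.3% in all, so 4 of 10 is near the background. The number of family forms called lower was 2 with DESeq2 size factors, where 16.4% of all miRNAs tested were called lower, and 3 with the seed at bases 2 to 8 (22.3%). It was 1 with total counts (10.4%), with no filter (7.47%), with tags near the common start (17.8%) and with the DESeq2 test (13.1%). The median log2 fold change was -0.52 over the 10 forms and 0.37 over all 183, and it was the same -0.52 with let-7d-3p at its lower bound. Exo-ADSCs has 1 library here, so the fit has 1 residual degree of freedom and assumes that this library varies like the 2 of Exo-AT.

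On the TMM scale, let-7a-5p was at 170537 CPM in the stem cell library, against 2529 and 3966 CPM in tissue replicates 1 and 2. The groups did not overlap: the mean was 3248 ± 1016 CPM in Exo-AT (SD, n = 2), and the log2 fold change was -5.67 (SE 0.28; edgeR adjusted p = 8.63e-47). With the seed at bases 2 to 8 only, it was at -3.98 (SE 0.25, adjusted p = 5.60e-34, edgeR). With the hairpins that the authors predicted kept in the fit as further features, its value was -5.68 (SE 0.95, adjusted p = 0.511), and edgeR called 0 of all 401 features tested (0%), with 25 at an unadjusted p under 0.05. With DESeq2 size factors in edgeR, let-7a-5p stayed called at a log2 fold change of -5.97, but its adjusted p-value was larger by many orders of magnitude. With 1 stem cell library, the size of these p-values is thus no measure of certainty. let-7f-5p was at 10395 CPM in Exo-ADSCs replicate 2 and at 5375 and 6006 CPM in Exo-AT. Its log2 fold change was -0.86 (SE 0.32, adjusted p = 0.0208, edgeR), and with total-count scaling it was 0.01 and not called. The call was also lost with no filter, with tags near the common start and with the DESeq2 test. Scaling shifts all miRNAs together: the median of all 183 was 0.37 by TMM, 0.08 by size factors of DESeq2 and 1.21 by total counts. Relative to that median, which takes out the shift, let-7f-5p stood at -1.24, -1.22 and -1.20 and let-7a-5p at -6.05 in each case.

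let-7d-3p, the opposite arm of let-7d, had 0 counts in Exo-ADSCs replicate 2 and was at 790 and 537 CPM (664 ± 179, SD, n = 2) in Exo-AT. It was called higher in Exo-AT from the counts as deposited (adjusted p = 0.000254, edgeR). With the stem cell library set to 3 counts, the level over both Exo-AT libraries together was at least 11.9-fold higher. By library it was at least 16.9-fold higher in replicate 1 and 11.5-fold in replicate 2. These bounds, and that of let-7a-3p below, do not cover tags read once, which are absent from all libraries. With tags of 20 to 25 nt only it no longer passed the low-count filter. let-7a-3p was at 499 CPM in Exo-ADSCs replicate 2 and at 0 and 40.8 CPM in Exo-AT, a log2 fold change of -3.77 (SE 1.38, adjusted p = 0.0208, edgeR). With Exo-AT replicate 1 left out that value was -3.57. With replicate 2 left out the tissue count is 0, which at 3 counts allows no more than the statement that let-7a-3p was at least 2.10-fold lower in replicate 1. The call was lost with DESeq2 size factors, total counts, no filter or the DESeq2 test. It did not pass the low-count filter with mismatch-free tags, with tags near the common start, with predicted hairpins included or with tags of 20 to 25 nt. In that length range let-7a-3p had 0 counts in the stem cell library and 0 and 6 in tissue, so the direction above was not seen there.

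The 6 forms that did not pass lay between -0.68 and 0.19. The log2 fold changes were -0.01 for let-7b-5p (SE 0.47), -0.61 for let-7c-5p (SE 0.44), -0.43 for let-7e-5p (SE 1.33), -0.68 for let-7g-5p (SE 0.59), -0.33 for let-7i-5p (SE 0.33) and 0.19 for miR-98-5p (SE 0.68). Their adjusted p-values ran from 0.284 to 0.995 (edgeR), which does not show that the levels were alike. In TMM-scaled CPM both Exo-AT libraries lay above the stem cell library for 1 of the 10 forms and below it for 6, while 3 overlapped; over all 183 these shares were 39.3% above and 37.7% below. Directions depended on scaling: let-7b-5p, let-7c-5p, let-7e-5p, let-7g-5p and let-7i-5p were below 0 with TMM and above 0 with total counts. Relative to the median of all miRNAs, all 8 tested 5p forms were below 0, from -0.19 for miR-98-5p to -6.05 for let-7a-5p with TMM. The distance was under 1 SE for let-7b-5p (-0.38), let-7e-5p (-0.81) and miR-98-5p. The 8 forms were below 0 under all 3 scalings, but subtracting the median removes the shift between scalings. These results are therefore not independent, and by definition as many miRNAs lie below a median as above it. With tags of 20 to 25 nt only, let-7c-5p (-1.61) and let-7i-5p (-1.24) were also called lower, which made 4 of 8 tested forms lower and 0 higher, where 22.3% and 23.1% of all miRNAs were called.

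**Figure D5:**
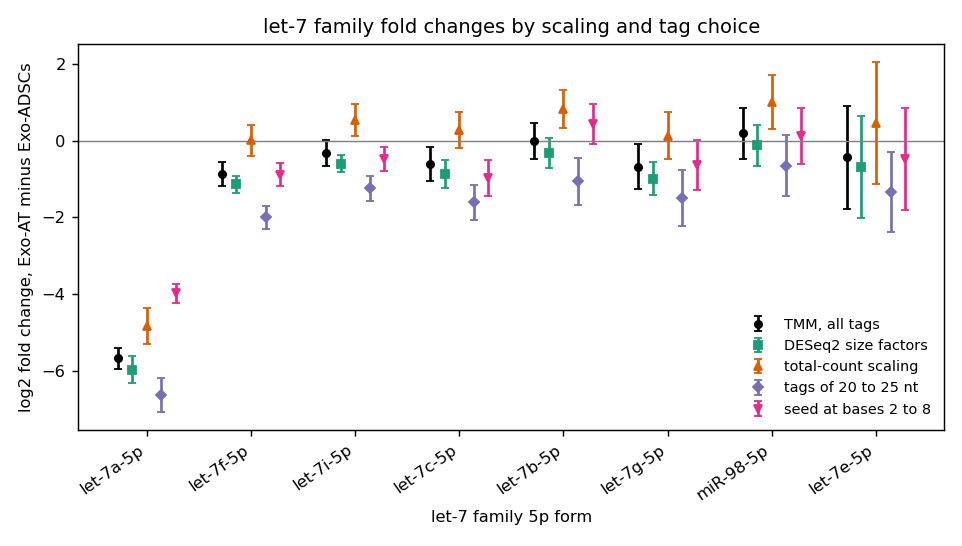
log2 fold change of Exo-AT against Exo-ADSCs for the 8 tested 5p forms under 3 scalings and 2 choices of tags; bars are standard errors. let-7a-5p lies between -3.98 and -6.63 in all 5, while let-7f-5p moves from -2.003 to 0.01 and the other forms lie between -1.61 and 0.996.

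The deposited table of 45 miRNAs that the authors list as raised in Exo-AT holds 3 family members and all 4 libraries. Its choice of members fixes their direction, so these values describe and do not test. In the authors' deposited table let-7f-5p had normalized reads of 2458 and 703 in Exo-AT replicates 1 and 2 and of 445 and 507 in Exo-ADSCs replicates 1 and 2. let-7b-5p had 2042 and 280 against 179 and 175, and miR-98-5p had 876 and 185 against 57 and 66, in the authors' deposited table. In all 3 the Exo-AT values lay above both Exo-ADSCs values and Exo-AT replicate 1 was highest. By tag counts none of these 3 was called higher in Exo-AT. The ratio of let-7f-5p to let-7b-5p does not depend on library scaling. It was 1.20 and 2.51 in Exo-AT and 2.49 and 2.90 in Exo-ADSCs in the authors' deposited table, against 4.25 and 2.35 in Exo-AT and 5.17 in Exo-ADSCs replicate 2 by tag counts. For Exo-AT replicate 2 both sources were close, and for Exo-AT replicate 1 and Exo-ADSCs replicate 2 they were not. How the authors summed tags to a miRNA is not given in the sources used here.

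Several let-7 genes of mammals lie in transcripts with members of the miR-99/100 and miR-125 families: let-7a-2 with miR-100 and miR-125b, let-7c-1 with miR-99a and miR-125b, and let-7e with miR-99b and miR-125a. Of 7 tested forms of these partners, miR-99a-5p (log2 fold change 4.46) and miR-125b-5p (2.82) were higher in Exo-AT, miR-100-5p (-3.13) and miR-99b-5p (-3.88) were lower, and 3 did not pass by edgeR, where 19.1% of all miRNAs tested were called in each direction. miR-99a-5p and let-7c-5p, products of 1 such transcript, stood at 4.46 and -0.61, although let-7c-5p is also made at another locus. miR-99b-5p and let-7e-5p stood at -3.88 and -0.43. With tags of 20 to 25 nt only, 2 of 6 tested partner forms were higher and 0 were lower by edgeR's test, against 23.1% and 22.3% of all 130 tested (71 of the 130 had an unadjusted p under 0.05).

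The miRNAs whose levels over the 3 libraries were most like those of the 2 leading members were found among 139 others by the largest absolute difference in log2(CPM + 1) after centring, on CPM of named miRNAs. For let-7a-5p these were miR-210-3p (0.60), a miRNA induced by low oxygen, miR-24-3p (0.96) and miR-214-3p (1.06). miR-210-3p was at 5267 CPM in Exo-ADSCs replicate 2 and at 328 and 346 CPM in Exo-AT. Its 328 CPM in Exo-AT replicate 1 is the counting floor of that library, and miR-214-3p lay below that floor at 109 CPM. The likeness of these 2 to let-7a-5p therefore rests partly on values that counting does not resolve. For let-7f-5p they were miR-423-3p (0.085), miR-221-3p (0.13) and miR-152-3p (0.15), and miR-423-3p was at 2942, 3503 and 2808 CPM. With 3 libraries such likeness is a description of these libraries.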

How the data were processed

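Tag files of 3 libraries give, per the file headers, whole-number counts and the tag length in nt (a unit of its own, other) for each tag aligned to a hairpin. The authors divided the counts of a tag between the hairpins it aligned to, as the files show. The normalized reads of the deposited table are a score here, since the authors' factor is not given in the sources used here. Novoalign 2.07.11 and rn6 are named per the submitters' processing notes. How reads were trimmed, which miRNA release was used and how hairpins were predicted is not given in the sources used here. Exo-ADSCs replicate 1 has an alignment summary, which was not used.

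Tags were given an arm by their midpoint (5 bases precede each hairpin) and summed per form. Counts were compared with edgeR 4.0.16 under R 4.3.3 by its two-sided quasi-likelihood test, with TMM factors of 0.664, 1.39 and 1.08 (Exo-ADSCs replicate 2, Exo-AT replicates 1 and 2), edgeR's filter (minimum count 10, total 15), Benjamini-Hochberg adjustment over 183 miRNAs and a threshold of 0.05. It was tested on simulated data in which all libraries varied alike, which cannot show how it does if the stem cell library varies otherwise. DESeq2 1.42.0 served as an alternative. The members, lists and tests were chosen with earlier results of these data known. Every family form was named, with its cluster partners and, for the 2 leading 5p forms, the 3 most alike miRNAs of at least 100 CPM. Alternatives changed the scaling, filter, test, tag length, start, mismatches, shared tags, predicted hairpins and libraries; those on the seed position, and those on the let-7a-5p share, were chosen after seeing the data.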

Additional observations from a re-analysis of the deposited data

How the results depend on the processing

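Of 115 alternative log2 fold changes of family forms, 84 counted as unchanged, 10 lost the call, 2 gained it, 15 reversed and 4 moved. For alternative tests, unchanged means the same direction and call, whatever the size: let-7a-3p at -8.37 with tags of 1 miRNA name was counted so. With 1 Exo-AT library left out, unchanged means the same direction and a change under 1 SE, and moved a larger one. The cause of the changes was not tested. let-7a-5p ranged from -6.63 to -3.82 and was called in every alternative test except with predicted hairpins included (adjusted p = 0.511, edgeR). In that alternative edgeR called 0 of 401 higher and 0 lower, with 25 at an unadjusted p under 0.05, and so 0 family forms in either direction. Of named miRNAs, 23 were higher with DESeq2 size factors and 19 lower with total counts. Family forms called lower were 1 with total counts, with no filter, with tags within 1 base of the common start and with DESeq2; 0 were higher with tags of 20 to 25 nt by edgeR, where 71 of 130 miRNAs had an unadjusted p under 0.05. let-7f-5p lost its call with no filter (adjusted p = 0.0565), with common starts (0.0656) and with DESeq2 (0.103).

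With total counts let-7b-5p was at 0.81, let-7c-5p at 0.28, let-7e-5p at 0.47, let-7f-5p at 0.0093, let-7g-5p at 0.13 and let-7i-5p at 0.54. let-7b-5p was at 0.044 with no filter, 0.51 with mismatch-free tags and 0.44 with the seed at bases 2 to 8. miR-98-5p was at -0.13 with DESeq2 size factors, -0.65 with tags of 20 to 25 nt and -0.18 with DESeq2. Leaving out 1 Exo-AT library gives 1 library against 1, a value with no test: let-7b-5p ranged from -0.63 to 0.34, let-7e-5p from -1.28 to 0.70, let-7g-5p from -1.30 to -0.38 and miR-98-5p from -0.62 to 0.55, the lower value without Exo-AT replicate 2 for let-7b-5p, let-7g-5p and miR-98-5p and without Exo-AT replicate 1 for let-7e-5p. Leaving out Exo-ADSCs replicate 2 leaves no stem cell counts.

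The family share was 1.75%, 28.6% and 4.62% in Exo-ADSCs replicate 2 with all assigned counts, with 20 to 25 nt and with the seed at bases 2 to 8; it was 1.52% in Exo-AT replicate 1 with all assigned counts, and 1.85% and 2.02% in Exo-AT replicate 2 with all assigned counts and the seed at bases 2 to 8. The share with 3 added bases was 0% with mismatch-free tags, for the family and for let-7a-5p. With 20 to 25 nt the 3p share was 0% in Exo-ADSCs replicate 2 for let-7a and for miR-98, and 79.2% for let-7d in Exo-AT replicate 2. The let-7a-5p share was 66.4% (seed at bases 2 to 8) and 67.6% (mismatch-free, 20 to 25 nt, 1 member) in the stem cell library, and 16.5% (seed at bases 2 to 8) in Exo-AT replicate 2. No paired analysis was possible because the tag counts hold only 1 replicate number, 2, that both groups share. Exo-AT replicate 1, with 231 family counts, limits the precision of the tissue values.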
